A study of Mus musculus with 6 samples.

Results

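The Wnt ligands, receptors, secreted modulators and feedback genes were followed in fluorescent cells sorted from mouse hindbrains at E10.5. The 52 genes were chosen by symbol, out of 18193 genes with a probe set of their own, without use of any measured value. Each gene was read from 1 probe set, the one with the highest mean over the 6 arrays. The set holds 19 Wnt ligands, 8 Frizzled receptors, 8 secreted antagonists (Sfrp and Dkk genes), 7 R-spondins and Lgr receptors, and 9 target or feedback genes. Fzd10os, a transcript from the strand opposite Fzd10, came in through its symbol alone and is counted apart. Fzd3 and Fzd6 are outside the set and are given with the rest of the pathway, and Tcf7 was not analysed here.

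In the swap group (n = 3 arrays) the Hoxb1 locus made another Hox protein in place of Hox-B1, together with tauGFP from an IRES. Which Hox protein this was is not reported here. In the control group (Hoxb1-IRES-tauGFP, n = 3 arrays) the locus made the normal Hox-B1 protein with the same tauGFP. The embryos of whole litters were pooled for each replicate. Both groups therefore carry the reporter in the Hoxb1 locus, and the sort took cells by the activity of that locus, which the labels place in rhombomere 4. How many copies of the modified allele each embryo carried was not given in the sources used here. Of 6 markers of rhombomere 4 and its branchiomotor neurons 5 were measured, and all 5 had a mean at or above the median of all probe sets. So did 61.4% of all genes, all 5 measured markers of otic and surface ectoderm and 7 of 8 markers of branchial mesenchyme. This count therefore does not identify the sorted cells. Hoxb1, read by a probe set whose place in the transcript is not known here, stood at 12.54, 12.06 and 11.78 in the swap arrays, against 12.67, 12.68 and 12.55 in the control arrays. Hoxb1 and Gata3 were lower in every swap array than in any control array, and neither passed limma's test. The groups of arrays lay apart, in either direction, for 8.85% of all genes. Isl1, Tbx20 and Phox2a overlapped between the genotypes, with log2 differences, swap minus control, of 0.13, 0.19 and -0.50.

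Wnt proteins are secreted lipid-modified ligands. They bind Frizzled receptors together with the co-receptors Lrp5 and Lrp6, and this protects β-catenin from destruction so that it can act with TCF/LEF factors on target genes. Axin2, Nkd1, Notum, Apcdd1, Rnf43 and Znrf3 feed back on the pathway, while R-spondins bound to Lgr receptors hold Rnf43 and Znrf3 away from Frizzled. In the dorsal hindbrain Wnt1 and Wnt3a are known as signals of the roof plate and its neighbouring progenitors.

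The promoters of the genes were searched for 2 motifs, because the pathway ends on TCF/LEF factors and the genotypes differ in a Hox protein. The windows came from the RefSeq table of GRCm38.p6 and ran from 250 bases before to 50 bases after the listed start. The table held 42 such windows, for 35 of the 52 genes. The TCF/LEF motif CTTTGAT, on either strand, lay in 3 of these 42 windows (7.14%), against 3.73% of all 32851 windows. The Hox-Pbx motif TGATNNAT, on either strand, lay in 2 of the 42 (4.76%), against 8.85% of all windows. Each match is printed with 12 bases to each side, 5′ to 3′ on the strand of the gene, with the motif in capitals. The motifs can overlap in the letters TGAT, but no gene of the set held both. The first 3 hold the TCF/LEF motif, and Axin2 and Rnf43 the Hox-Pbx motif.
Sp5, chr2:70474807-70474837, + strand, 104 bases before the start: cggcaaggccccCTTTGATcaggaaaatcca
Wnt11, chr7:98835049-98835079, + strand, 51 bases before: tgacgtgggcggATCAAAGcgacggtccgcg
Wnt5b, chr6:119449439-119449469, − strand, 71 bases before: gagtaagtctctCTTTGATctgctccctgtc
Axin2, chr11:108920165-108920196, + strand, 172 bases before: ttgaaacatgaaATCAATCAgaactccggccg
Rnf43, chr11:87699768-87699799, + strand, 117 bases before: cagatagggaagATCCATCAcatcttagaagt
A match is a run of letters, not a shown binding site. The windows of Axin2, Rnf43, Wnt5b and Wnt11 belong to starts inside the annotated genes (chr11:108917828-108950783, chr11:87663087-87735539, chr6:119432531-119544824 and chr7:98835084-98854747). The values of these genes are given with their groups.

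Values are log2 intensities, and differences are swap minus control on that scale. The median over all 45037 probe sets was 6.83, an intensity of 114. A mean at or above it is used here to mark brighter probe sets, not as a detection call, since the files hold none. The mean lay there for 28 of the 52 genes (53.8%), against 61.4% of all 18193 genes. Different probe sets differ in brightness for the same amount of RNA, so levels are compared between arrays and not between genes. Array medians ran from 118 to 139 intensity units, and the 3 arrays of each group limit the precision of every value.

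No Wnt gene passed the test between the genotypes. In limma, 0 of the 52 genes reached an adjusted p under 0.05, with 0.526 as the lowest among them. Over the whole array 0 of 45037 probe sets passed (0%). At an unadjusted p under 0.05 there were 3 of the 52 genes (5.77%), Fzd2, Lgr6 and Sfrp4, against 3.63% of all genes. All 3 swap arrays lay on one side of all 3 control arrays for those 3 genes and for Fzd1, which makes 4 of 52 (7.69%), against 8.85% of all genes. The difference was positive for 29 genes and negative for 23, with a median of 0.08, beside 0.01 over all genes.

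**Figure D1:**
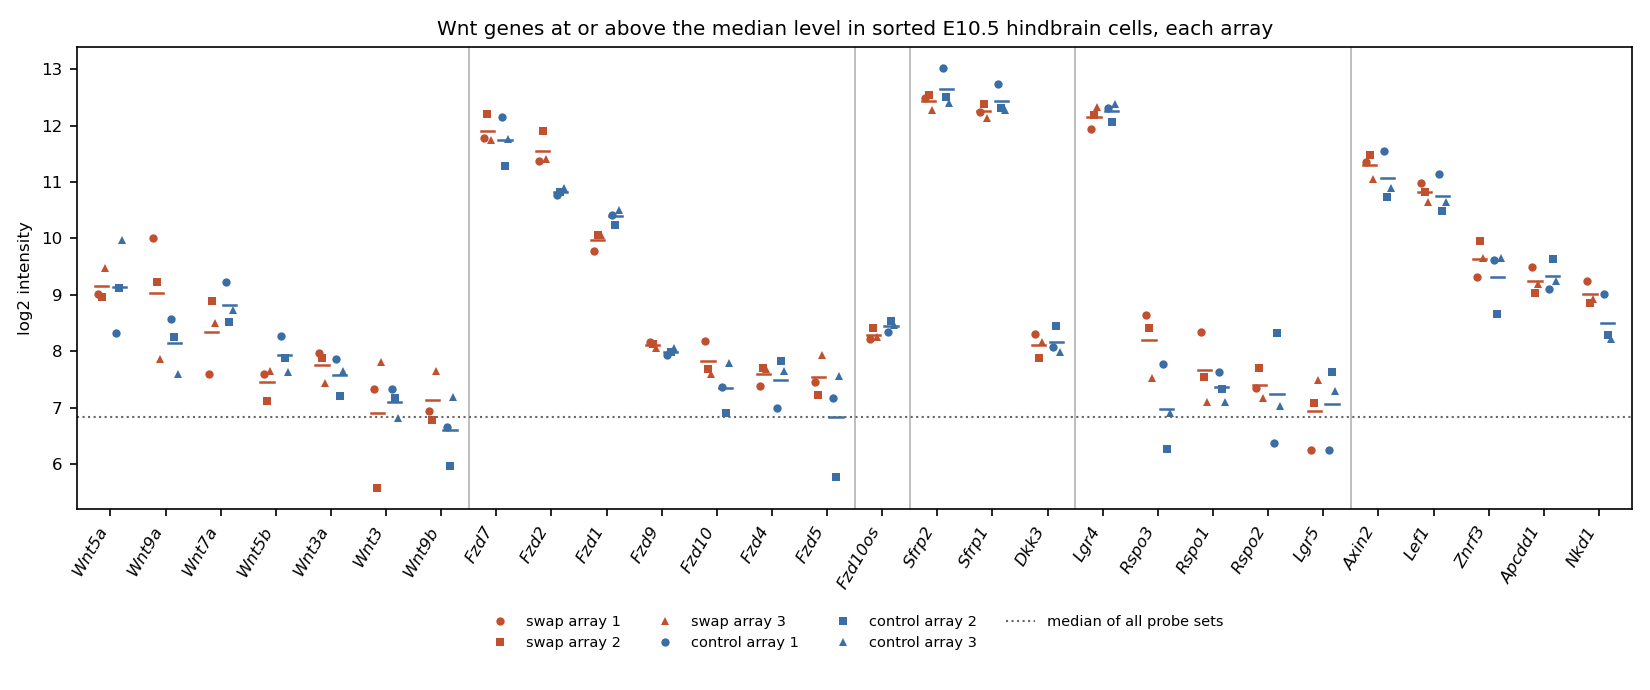
Log2 intensity of the 28 Wnt genes at or above the median of all probe sets, grouped by role and separated by grey lines (ligands, receptors, Fzd10os, antagonists, R-spondins and Lgr receptors, targets). Each point is 1 array, swap on the left in red and control on the right in blue, short bars are group means (n = 3), and the dotted line is the median of all probe sets (6.83). Swap and control points separate for Fzd2 and Fzd1 and overlap for all others plotted.

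Among the receptors, Fzd2 was higher and Fzd1 lower in every swap array than in any control array. Frizzleds are the seven-pass membrane receptors of Wnt proteins. Fzd2 (chr11:102604431-102608058, GRCm38.p6) stood at 11.37, 11.90 and 11.40 in the swap arrays, against 10.77, 10.83 and 10.89 in the control arrays. The difference was 0.72 (SE 0.24, 95% interval 0.12 to 1.32), with an adjusted p of 1.00 in limma. It lay between 0.55 and 0.82 with any 1 array left out. The other 2 probe sets of Fzd2, both below the median level, had differences of -0.91 (SE 0.39) and -1.41 (SE 0.76), with arrays that overlapped. The mean over the 3 probe sets was therefore negative, at -0.53, so the direction for Fzd2 rests on its brightest probe set.

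Fzd1 (chr5:4753839-4758216) stood at 9.77, 10.07 and 10.06 in the swap arrays, against 10.42, 10.24 and 10.51 in the control arrays. The groups did not overlap, and the difference of -0.42 (95% interval -0.97 to 0.12) did not pass the test. Its second probe set, below the median level, gave -0.73 with a wide error (SE 0.92).

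**Figure D2:**
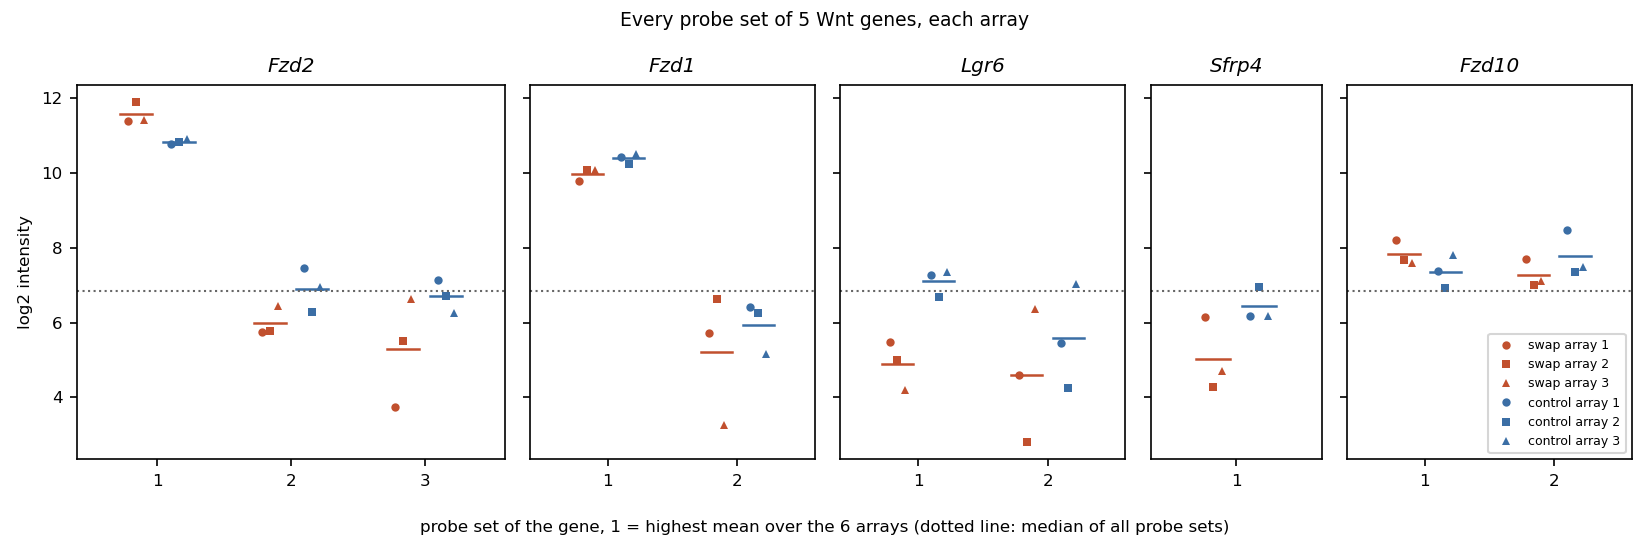
Log2 intensity of every probe set of Fzd2, Fzd1, Lgr6, Sfrp4 and Fzd10, numbered from the brightest, with 1 point per array, swap on the left in red and control on the right in blue. Short bars are group means (n = 3) and the dotted line is the median of all probe sets. Swap points lie above control points for the first Fzd2 probe set and below them on average for its other 2, and the 2 probe sets of Fzd10 differ in direction.

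The other Frizzled genes overlapped between the genotypes on their brightest probe sets. Fzd7 stood at 11.78, 12.20 and 11.74 in the swap arrays, against 12.16, 11.29 and 11.77 in the control arrays, a difference of 0.16 (95% interval -0.60 to 0.93). Its second probe set, below the median level, was higher in every swap array and differed by 0.88 (SE 0.33, limma's adjusted p = 1.00). Fzd9 had the narrowest spread of the receptors, at 8.17, 8.13 and 8.06 in the swap arrays and 7.94, 7.99 and 8.06 in the control arrays. Its interval, -0.37 to 0.61, lay within 2-fold in both directions, as it did for 5 of the 8 receptors. Fzd4 differed by 0.10 (-0.64 to 0.84) and Fzd5 by 0.70 (-0.59 to 1.98, and 0.16 without control array 2). Fzd8, below the median level, differed by 0.10 (SE 0.32).

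Fzd10, a receptor known from the dorsal neural tube, gave no single direction. Its brightest probe set stood at 8.19, 7.68 and 7.59 in the swap arrays, against 7.37, 6.91 and 7.79 in the control arrays, a difference of 0.47 (SE 0.33). The second probe set, with nearly the same mean, differed by -0.51 (SE 0.40). The opposite-strand transcript Fzd10os differed by -0.15 (95% interval -0.66 to 0.36).

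The ligands overlapped between the genotypes. Of the 19 ligands 7 had a mean of at least the median level. None of the 19 had groups of arrays that lay apart, and 0 had an unadjusted p under 0.05. The difference was positive for 12 and negative for 7, and its median was 0.14. The median SE was 0.42 for the 7 brighter ligands and 0.90 for the other 12, so that only Wnt3a and Wnt16 had an interval within 2-fold. Wnt16 lay far below the median level, with a mean of 3.83 and 3.90 on every swap array. Its narrow interval therefore does not show equal expression.

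Wnt1, a signal of the dorsal midline, was measured by 1 probe set below the median level. It stood at 8.16, 7.45 and 5.71 in the swap arrays, against 7.94, 5.68 and 4.69 in the control arrays. In both genotypes array 1 was the highest and array 3 the lowest, and the difference of 1.00 (SE 1.02) ranged from 0.30 to 1.92 with 1 array left out. Wnt3a, which acts beside Wnt1 in the dorsal neural tube, stood at 7.97, 7.89 and 7.43 in the swap arrays, against 7.86, 7.21 and 7.65 in the control arrays. Its difference was 0.19, with a 95% interval of -0.53 to 0.90. Wnt9a stood at 10.01, 9.23 and 7.87 in the swap arrays, against 8.57, 8.26 and 7.59 in the control arrays. Swap arrays 1 and 2 lay above all control arrays and swap array 3 among them, and the difference of 0.89 (SE 0.61) was 0.40 without swap array 1.

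Wnt5a, best known as a ligand of β-catenin-independent signalling, stood at 9.02, 8.96 and 9.48 in the swap arrays, against 8.32, 9.12 and 9.98 in the control arrays. The control arrays spanned the swap arrays, and the difference was 0.01 (SE 0.46). The 2 further Wnt5a probe sets of at least the median level gave -0.11 and 0.07. Wnt5b, its close relative, stood at 7.60, 7.12 and 7.65 in the swap arrays, against 8.28, 7.89 and 7.63 in the control arrays. That was a difference of -0.48 (95% interval -1.18 to 0.23), with 1 swap array inside the control range by a narrow margin.

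Wnt7a, a ligand of the ventricular zone and of neurons, stood at 7.60, 8.90 and 8.51 in the swap arrays, against 9.23, 8.52 and 8.73 in the control arrays. Its difference of -0.49 was -0.12 without swap array 1 and -0.77 without swap array 2. Wnt3 differed by -0.20 (SE 0.61) and had 1 low swap array, at 5.57. Wnt9b differed by 0.53 (SE 0.41).

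Wnt8a, known in the mouse from the presumptive rhombomere 4 before this stage, stood at 3.91, 7.21 and 6.34 in the swap arrays, against 5.85, 7.08 and 6.14 in the control arrays. Its difference of -0.54 (SE 0.90) was 0.42 without swap array 1. Wnt7b, at 6.61, 3.56 and 6.10 in the swap arrays and 4.73, 3.55 and 6.62 in the control arrays, differed by 0.46 (SE 1.10). Both lay below the median level, and their arrays overlapped over most of the range. The 9 remaining ligands, Wnt2, Wnt2b, Wnt4, Wnt6, Wnt8b, Wnt10a, Wnt10b, Wnt11 and Wnt16, also lay below it. Their differences ran from -1.10 for Wnt6 to 0.82 for Wnt8b. Both turned with the mean over all probe sets of the gene, to 0.14 for Wnt6 and -0.75 for Wnt8b, and Wnt8b was at -0.18 without swap array 2. Wnt11, which carries a TCF/LEF motif match, differed by -0.51 (SE 0.89).

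**Figure D3:**
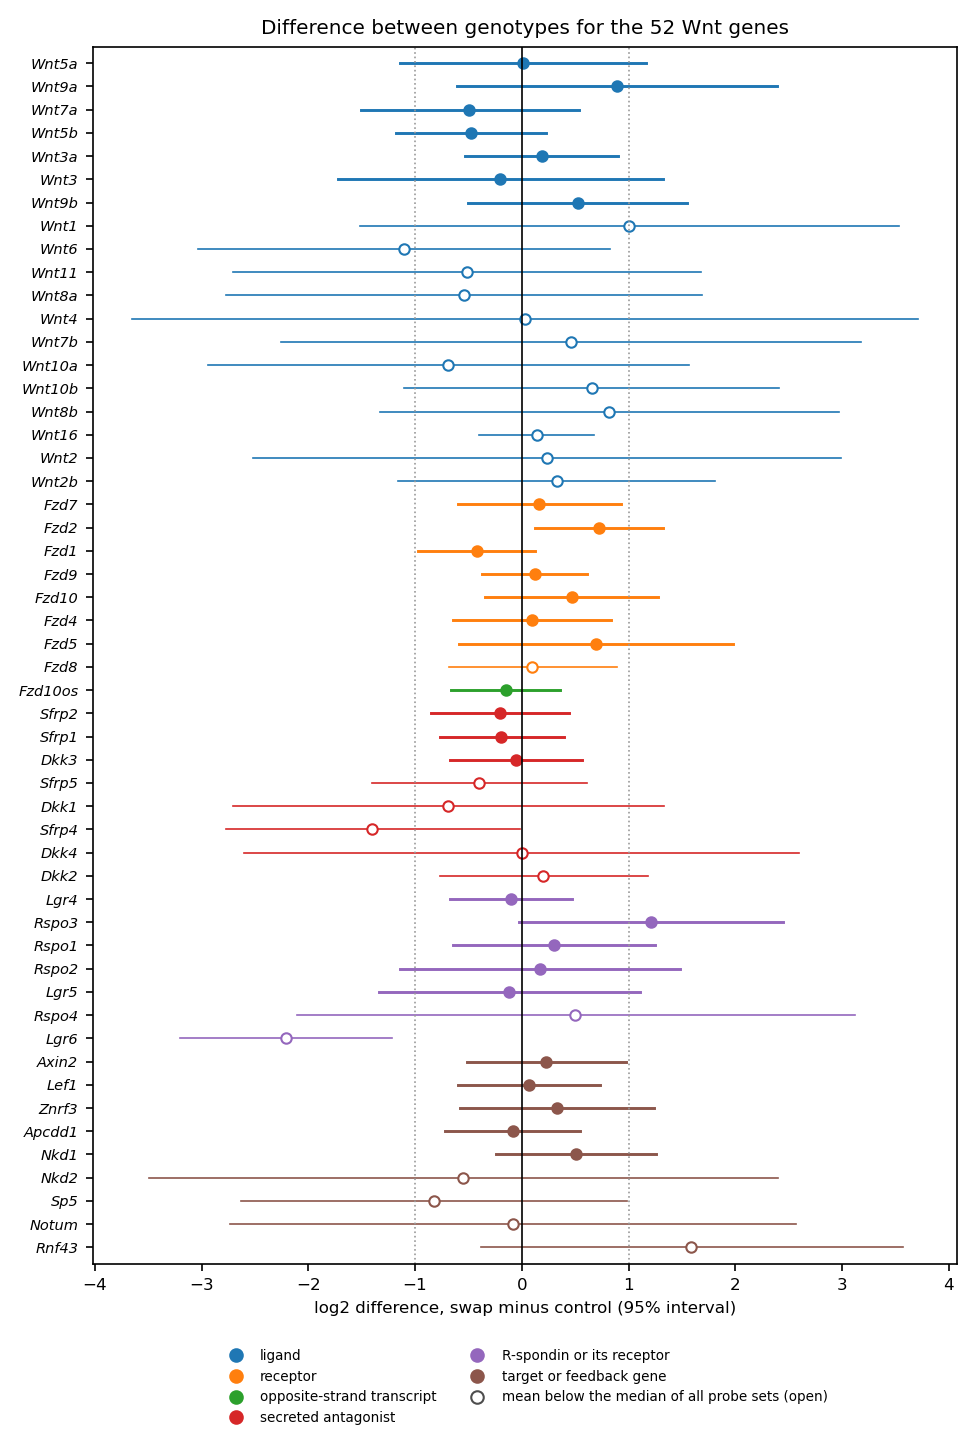
Log2 difference, swap minus control, for the 52 Wnt genes with its 95% interval from limma, by role and then by mean level. Filled points are genes with a mean at or above the median of all probe sets and open points are below it. The vertical lines mark 0 and 2-fold in each direction. Only the intervals of Fzd2, Lgr6 and Sfrp4 leave out 0, with no correction for the number of tests.

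The antagonists Sfrp1 and Sfrp2 overlapped between the genotypes on their brightest probe sets. Sfrp proteins bind Wnt ligands outside the cell, and Dkk1, Dkk2 and Dkk4 act on the Lrp5 and Lrp6 co-receptors. Sfrp2 stood at 12.49, 12.55 and 12.27 in the swap arrays, against 13.02, 12.50 and 12.40 in the control arrays, and differed by -0.20 (95% interval -0.85 to 0.44). Sfrp1 stood at 12.24, 12.38 and 12.14 in the swap arrays, against 12.73, 12.32 and 12.27 in the control arrays, and differed by -0.19 (-0.77 to 0.40). In both genes control array 1 was the highest of the 6 arrays. Sfrp1 had 3 more probe sets of at least the median level, with differences of -0.55, -0.02 and -0.54, and the arrays of the first of these did not overlap. Dkk3, a divergent relative of the Dickkopf proteins, differed by -0.05 (-0.67 to 0.56), while its second probe set gave -0.96 (SE 0.30, limma's adjusted p = 1.00).

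Sfrp4 (chr13:19623175-19632825) lay below the median level, with 1 probe set. It stood at 6.14, 4.27 and 4.70 in the swap arrays, against 6.17, 6.96 and 6.17 in the control arrays. Swap array 1 nearly touched the control range, and the difference of -1.40 (SE 0.55, limma's adjusted p = 1.00) ranged from -1.95 to -1.01 with 1 array left out. It shrank to -0.60 when 64 was added to every intensity before log2. Dkk1 differed by -0.69 (SE 0.82), with swap array 3 low at 3.72 and the other 2 swap arrays, at 6.22 and 6.46, inside the control range of 5.54 to 6.82. The dimmer Dkk1 probe set differed by -1.75 (SE 0.25), at 3.22, 3.34 and 3.82 in the swap arrays and 5.19, 5.13 and 5.31 in the control arrays. Its adjusted p of 0.397 in limma was the smallest of all 101 probe sets of the 52 genes. Sfrp5, Dkk2 and Dkk4 had differences of -0.40, 0.20 and 0.00, all below the median level.

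R-spondins amplify Wnt signals, and Lgr4, Lgr5 and Lgr6 are their receptors. Lgr4 overlapped between the genotypes, at 11.94, 12.18 and 12.33 in the swap arrays and 12.32, 12.06 and 12.38 in the control arrays. Its difference of -0.10 had a 95% interval of -0.67 to 0.47. Lgr5 stood at 6.26, 7.09 and 7.49 in the swap arrays, against 6.26, 7.63 and 7.30 in the control arrays, with array 1 the lowest in both genotypes. Lgr5 differed by -0.12 (SE 0.50).

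Lgr6 (chr1:134983300-135105374) had the smallest p of the 52 genes. Its log2 intensity was 5.47, 5.0 and 4.21 in the swap arrays, against 7.27, 6.69 and 7.35 in the control arrays. All swap arrays lay below the median of all probe sets and below every control array. The difference was -2.21 (SE 0.40, 95% interval -3.20 to -1.22), with an adjusted p of 0.526 in limma, and it lay between -2.49 and -1.87 with 1 array left out. With 64 added to every intensity it was -1.09. The second, dimmer Lgr6 probe set differed by -0.98 (SE 1.11), with arrays that overlapped.

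Rspo3, a roof plate R-spondin, stood at 8.65, 8.41 and 7.53 in the swap arrays, against 7.78, 6.27 and 6.91 in the control arrays. The difference of 1.21 (SE 0.50, 95% interval -0.03 to 2.45, limma's adjusted p = 1.00) ranged from 0.85 to 1.61 with 1 array left out. Swap arrays 1 and 2 lay above all control arrays, and swap array 3 lay below control array 1. The second Rspo3 probe set, below the median level, differed by -0.17 (SE 1.23), and the mean over both by 0.52. Rspo1, also known from the roof plate, stood at 8.35, 7.54 and 7.11 in the swap arrays, against 7.64, 7.34 and 7.10 in the control arrays. Its difference of 0.30 was -0.04 without swap array 1. Rspo2 differed by 0.17 (SE 0.53), and its dimmer probe set by -1.26 (SE 0.23, limma's adjusted p = 0.513). Rspo4, below the median level, differed by 0.50 (SE 1.06).

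Marker lists of other cells and regions were read on the same arrays. Of 5 roof plate and dorsal midline markers 4 were measured. Their summed intensity was 975, 796 and 619 in the swap arrays, against 661, 575 and 572 in the control arrays. Msx1, a dorsal midline homeobox gene, stood at 9.50, 8.82 and 7.97 in the swap arrays and 8.32, 8.28 and 7.86 in the control arrays. Within each genotype Msx1 was highest in array 1 and lowest in array 3, as were Wnt1, Wnt9a and Rspo1 in both genotypes. The other measured markers of the list did not keep this order in both genotypes. In the swap arrays Lmx1b rose from 7.14 in array 1 to 8.16 in array 3, and Lmx1a and Msx2 were highest in array 2. Msx2 kept the order in the control arrays, at 7.23, 6.65 and 6.22. Wnt3a and Rspo3 kept the order in the swap arrays, but in the control arrays they were lowest in array 2. The share of all genes with this order was not counted. Lmx1a, a defining factor of the roof plate, lay far below the median level on all arrays, between 2.77 and 4.40 in the swap arrays and between 2.55 and 3.26 in the control arrays. Msx2 and Lmx1b had differences of -0.18 and 0.07. The summed roof plate markers overlapped between the genotypes. Those of 2 other lists did not, while the sums of all remaining lists overlapped. The 4 measured markers of isthmus and midbrain, where Wnt1 is also made, summed to 839 to 1126 in the swap arrays, against 537 to 653 in the control arrays. Among them Otx2, a forebrain and midbrain factor, stood at 9.82, 9.54 and 9.22 in the swap arrays, against 8.47, 8.58 and 8.48 in the control arrays, with an adjusted p of 0.818 in limma. Otx2 made up the larger part of each sum. En1, En2 and Fgf8 overlapped between the genotypes, with differences of -0.44, 0.48 and -0.23. The 5 endothelial markers, all below the median level, summed to 368 to 403 in the swap arrays, against 164 to 334 in the control arrays. Each of the 5 overlapped between the genotypes when read alone, with differences from -0.06 for Tie1 to 1.12 for Kdr. The 5 macrophage markers, whose sums overlapped, reached 14516 in control array 2. They summed to 346 and 1097 in control arrays 1 and 3, and to 1868 to 3809 in the swap arrays. The part of the roof plate, midbrain tissue, endothelium or macrophages in the values of the Wnt genes was not tested. In sorted pools fewer cells of a type and less RNA per cell cannot be told apart.

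**Figure D4:**
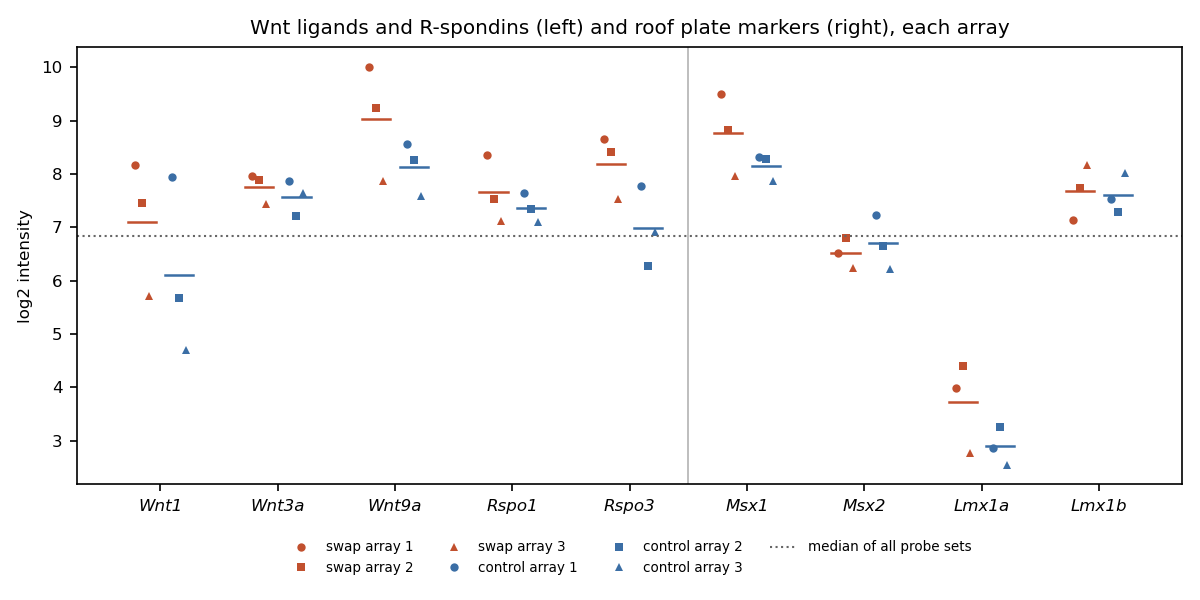
Log2 intensity of Wnt1, Wnt3a, Wnt9a, Rspo1 and Rspo3 to the left of the grey line, and of the roof plate markers Msx1, Msx2, Lmx1a and Lmx1b to the right. Each point is 1 array, swap on the left in red and control on the right in blue, with group means as short bars (n = 3) and the median of all probe sets as a dotted line. Swap array 1 is the highest of the 6 arrays for the first 5 genes and for Msx1, and swap array 3 lies among or below the control arrays for all but Lmx1b.

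The transcriptional readouts of the pathway did not separate the genotypes. Axin2, an inhibitor of β-catenin and a widely used target gene of Wnt signalling, stood at 11.36, 11.48 and 11.05 in the swap arrays, against 11.55, 10.74 and 10.90 in the control arrays. The control arrays spanned a wider range than the swap arrays and control array 1 was the highest of all. The difference was 0.23 (95% interval -0.51 to 0.98). Lef1, a DNA-binding partner of β-catenin and itself a target, stood at 10.99, 10.83 and 10.65 in the swap arrays, against 11.14, 10.48 and 10.65 in the control arrays. It differed by 0.07 (-0.60 to 0.73). These 2 genes and Apcdd1 were those of the 9 whose interval lay within 2-fold.

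Apcdd1, a membrane inhibitor of Wnt reception, differed by -0.08 (95% interval -0.72 to 0.55), and its further probe sets of at least that level gave differences of both signs. Nkd1, an inhibitor that binds Dishevelled, stood at 9.25, 8.85 and 8.93 in the swap arrays, against 9.01, 8.29 and 8.22 in the control arrays. Only control array 1 reached into the swap range, and the difference was 0.51 (-0.24 to 1.26). Znrf3, the ligase that removes Frizzled from the membrane, differed by 0.33 (SE 0.37, and 0.01 without control array 2).

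Sp5, a zinc-finger target gene with the TCF/LEF motif shown above, lay below the median level. It stood at 4.20, 5.98 and 4.29 in the swap arrays, against 6.88, 5.02 and 5.03 in the control arrays, and differed by -0.82 (SE 0.73, and -0.20 without control array 1). Rnf43, the partner of Znrf3, differed by 1.59 (SE 0.80), with arrays that overlapped. That difference was 0.41 with 64 added to every intensity and 0.65 without both replicate 1 arrays. Nkd2 and the Wnt-inactivating enzyme Notum differed by -0.55 (SE 1.19) and -0.08 (SE 1.07). All 4 genes lay below the median level.

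The rest of the pathway was measured for 42 of 43 listed genes, and 0 of them passed limma's test or had an unadjusted p under 0.05. Of the 42 genes 24 had a positive and 18 a negative difference, with a median of 0.03, and the interval lay within 2-fold for 27. β-catenin itself, Ctnnb1, stood at 14.54, 14.32 and 14.24 in the swap arrays and 14.39, 14.19 and 14.24 in the control arrays, a difference of 0.09 (95% interval -0.44 to 0.62). The co-receptor Lrp6 differed by -0.06 (-0.64 to 0.52), while Lrp5 lay far below the median level. Porcn, which adds the lipid to Wnt proteins, differed by 0.13 and Wls, which carries them to the surface, by 0.19. Fzd3 and Fzd6 differed by 0.11 and 0.10.

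Tcf7l2, a TCF factor, was 1 of 3 genes of this list whose arrays did not overlap, 7.14% of its 42 genes against 8.85% of all genes. It stood at 9.29, 9.94 and 9.98 in the swap arrays, against 10.13, 10.04 and 10.42 in the control arrays, a difference of -0.46 (95% interval -1.16 to 0.25). Dvl1, a Dishevelled protein, differed by -0.08, and Cer1, a secreted antagonist below the median level, by -1.73 (SE 0.89). The related factor Tcf7l1 differed by -0.26 (SE 0.43), with arrays that overlapped.

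Array 1 of each genotype stood apart from the other arrays in many genes. Both lay above, or both below, the other 4 arrays in 11 of the 52 genes (21.2%), against 21.9% of all genes. They were the highest for Wnt1, Rspo1, Fzd8, Lef1 and Nkd1 and the lowest for Wnt4, Wnt8a, Lgr5, Rspo4, Fzd4 and Dkk4. Of the 8 markers of branchial mesenchyme 6 were lowest in these arrays, and Prrx2 and Pdgfra were not. The summed intensity of the 8 was 3361 in swap array 1 and 2824 in control array 1, while the other 4 arrays lay between 5002 and 9139. By group the range was 3361 to 6506 in the swap arrays and 2824 to 9139 in the control arrays. Without both of these arrays limma again called 0 of the 52 genes, and Fzd2, Lgr6 and Sfrp4 had differences of 0.79, -2.41 and -2.08.

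Counted over probe sets in place of genes, 9 of the 101 probe sets of the Wnt genes had an unadjusted p under 0.05 (8.91%), against 4.57% of all probe sets. These 9 belonged to Dkk1, Dkk3, Fzd2, Fzd7, Lgr6, Nkd2, Rspo2, Sfrp4 and Wnt8b, and 7 of them were lower in the swap arrays. The split by direction among all probe sets with such a p was not counted, so the 7 show no lean of the Wnt genes. Only 2 of the 9, those of Fzd2 and Dkk3, lay at or above the median level. Probe sets of 1 gene share its transcript and are not independent. For 4 of the 7 genes with several probe sets of at least that level, Apcdd1, Fzd10, Nkd1 and Wnt5a, those probe sets differed in sign.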

How the data were processed

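Amplified, biotin-labelled RNA of the sorted cells was read on Affymetrix mouse expression arrays, 3 for each genotype, per the labels. The authors deposited a linear intensity for each probe set on each array, scaled by the authors to a 2% trimmed mean of 500. The affy package is named in the submitters' processing notes, with its settings not given in the sources used here. No columns were left unmapped. The log2 of each intensity was taken with no offset, after 64 control probe sets were left out. Differences were fitted over 45037 probe sets with limma 3.58.1 (lmFit, eBayes) in R 4.3.3, two-sided, adjusted by the Benjamini-Hochberg method at a threshold of 0.05. The fit was tested on simulated data. Symbols came from the platform's probe table, and all 52 matched RefSeq.

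Replicates are biological per the series design, and p-values measure the spread between pooled litters. No batch is given in the sources used here. Same-numbered arrays correlated at 0.234, 0.0313 and 0.224 in their deviations from group means, and differently numbered arrays at -0.287 to 0.123. For arrays 1 and 3 the same-numbered value was the highest. The main fit did not pair arrays by number, and whether the numbers mark a shared batch was not tested. A replicate block was fitted as an alternative.

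Genes and lists were chosen with earlier results of these data known. Named with values were 14 genes fixed by their known roles, genes with an unadjusted p under 0.05 or arrays that did not overlap, and all genes at or above the median level. Rnf43, Dvl1, Cer1 and the dimmer probe sets of named genes were singled out after their values were seen. Alternatives were a replicate block, a level filter, quantile normalization, median centring, other variance priors, array weights, an offset, means over probe sets, and leaving out arrays.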

Additional observations from a re-analysis of the deposited data

How the results depend on the processing

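The count of called Wnt genes was 0 in limma under all 15 alternatives, and so was that of the other pathway genes. Their smallest adjusted p over these alternatives was 0.474 and 0.868. The count over all probe sets was 0 in the 14 alternatives that tested them, with a smallest adjusted p of 0.241. With the replicate block 0 Wnt genes were called, with a smallest adjusted p of 0.940, and it changed no other call. With 1 array left out, the number of Wnt genes with an unadjusted p under 0.05 ran from 1 (without swap array 2, or without control array 3) to 6 (without swap array 3), against 3 with all arrays. The median difference then ran from -0.05 (without control array 1) to 0.20 (without swap array 1), against 0.08. Of 756 values of the 52 genes under the alternatives 678 kept the sign of the difference, 78 turned and 0 were called. All turned values belonged to differences that had not passed. Lgr6, Sfrp4 and Fzd1 kept their sign in every alternative that gave them a value. Fzd2 turned in 1, to -0.53 with the mean over its probe sets, of which the 2 dimmer ones had negative differences. Why the probe sets of Fzd2 differ in direction was not tested. For 24 of the 52 genes the level limits precision, with a median SE of 0.84, against 0.30 for the 28 brighter genes.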
